A study of Mus musculus with 8 samples.

Results

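Dntt, Igfbp4, Dapl1, Tspan9 and Ampd1 are 5 genes that stood high in naive CD4+ T cells of mouse spleen and lymph nodes. They are described here over 4 sorted T cell groups. The genes were chosen by their high array signal in the naive group, so every value of these 5 genes against naive is a description, and they are tested only between the other groups. They are 5 of the 27670 genes named on the array, measured by 9 probes in all. Dntt, Igfbp4, Tspan9 and Ampd1 carry those names in the files (8 probes). Dapl1 is listed there as 2310032F03Rik and was matched by its RefSeq transcript (1 probe).

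The samples were 8 single-colour arrays, 2 for each of the Treg, CD44hi, CD44lo and naive groups. CD4+ T cells were sorted from spleen and lymph nodes, pooled, of male 15-week C57BL/6 mice in all groups, and the series title names mice carrying Ox40-cre and ROSA-YFP. In such mice the cre recombinase is driven from the locus of Ox40 (Tnfrsf4, a costimulatory receptor of activated T cells) and leaves a lasting YFP mark. Which groups were YFP+, and which surface markers defined each sort gate, is not in the labels, nor whether arrays 1 and 2 of a group were different mice. A p-value here therefore rests on a spread between arrays that may be technical only.

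Dntt encodes terminal deoxynucleotidyl transferase, the template-independent DNA polymerase that adds N nucleotides to the junctions of antigen receptor genes during V(D)J recombination in developing lymphocytes. Igfbp4 encodes a secreted protein that binds insulin-like growth factors and limits their access to receptors. Dapl1 encodes a small protein related to death-associated protein, and Tspan9 a tetraspanin, a member of a family of membrane proteins that organise other membrane proteins into microdomains. Ampd1 encodes the AMP deaminase best known from skeletal muscle, which turns AMP into IMP in the purine nucleotide cycle.

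A level is given here as a multiple of the 75th percentile of the array's background-subtracted signal, and a log2 level of 0 equals that percentile. Levels of different probes were not set against each other. The 75th percentile was 1164.6 and 1336.8 signal units on the Treg arrays, 1208.4 and 1188.9 on CD44hi, 1044.6 and 1064.8 on CD44lo, and 990.7 and 639.3 on naive. Of the 41174 probes, naive array 2 had 59.2% well above background and the other 7 arrays had 62.0% to 68.8%. Foxp3, the lineage factor of regulatory T cells, was at 6.84 and 6.39 in Treg, 0.844 and 0.936 in CD44hi, 1.27 and 1.79 in CD44lo, and 0.0235 and 0.0389 in naive. T cell transcripts were present throughout, with all 10 markers listed for CD4 T cells well above background on both arrays of every group. Most of these 10 are general T cell genes. Their summed levels were 350 to 395 in Treg, 442 to 443 in CD44hi, 432 to 436 in CD44lo and 422 to 581 in naive. Cd4 itself was at 1.14 and 1.05 in Treg, 2.37 and 1.36 in CD44hi, 1.7 and 1.72 in CD44lo, and 2.22 and 0.751 in naive.

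The array reads each gene through 60-base probes, and probes at different places in a gene let its measurements be compared. 4 of the 9 probe sequences are shown, because they are the most upstream probes of Dntt and Igfbp4 and the only probes of Dapl1 and Ampd1. The Dntt sequence covers 1570 genomic bases with 60 of its own, at chr19:40935135-40936704 (mm7, plus strand), and so joins separate stretches of the genome. The Igfbp4 sequence lies at chr11:99157316-99157375, the Dapl1 sequence at chr2:59435316-59435375 and the Ampd1 sequence at chr3:102892834-102892893, all on the plus strand of mm7.
Dntt probe 3: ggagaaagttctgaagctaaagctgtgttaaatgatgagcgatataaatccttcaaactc
Igfbp4 probe 2: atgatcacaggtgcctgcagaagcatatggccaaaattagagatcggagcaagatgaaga
Dapl1 probe 1: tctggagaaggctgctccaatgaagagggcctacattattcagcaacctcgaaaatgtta
Ampd1 probe 1: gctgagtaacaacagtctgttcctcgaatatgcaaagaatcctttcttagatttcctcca

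The other probes of Dntt lie further downstream, probe 1 at chr19:40953285-40953344 and probe 2 at chr19:40953110-40953169. Igfbp4 probe 1 lies at chr11:99161059-99161118, downstream of probe 2. Tspan9 is read on the minus strand, by probe 1 at chr6:127984705-127984764 and by probe 2 upstream of it at chr6:127987143-127987202. In the later build GRCm38.p6, RefSeq places the genes at chr19:41029275-41059525 (Dntt), chr11:99040005-99052655 (Igfbp4), chr2:59484653-59505020 (Dapl1), chr6:127961396-128143578 (Tspan9) and chr3:103073897-103099720 (Ampd1). In each gene probe 1 was the brightest on average and stood for the gene in the tests. All 5 of these brightest probes were well above background on all 8 arrays, so the transcripts were lower but still detected in Treg and CD44hi.

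Naive array 2 stood apart in a way that touches these probes. Over 2394 genes with probes 500 to 20000 bases apart, the median log2 difference of the upstream probe from the downstream probe, less its mean over the arrays, was -0.404 on naive array 2, against -0.002 to 0.123 on the other 7 arrays. Dntt probe 3 and Igfbp4 probe 2, the most upstream probes of their genes, were lower on naive array 2 than on naive array 1, while the upstream Tspan9 probe 2, Dntt probe 2 and the brightest probes of all 5 genes were higher on naive array 2. The part of the gap in the members' naive levels was not tested. Differences of the brightest probes from naive are therefore also given with each naive array alone.

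**Figure D1:**
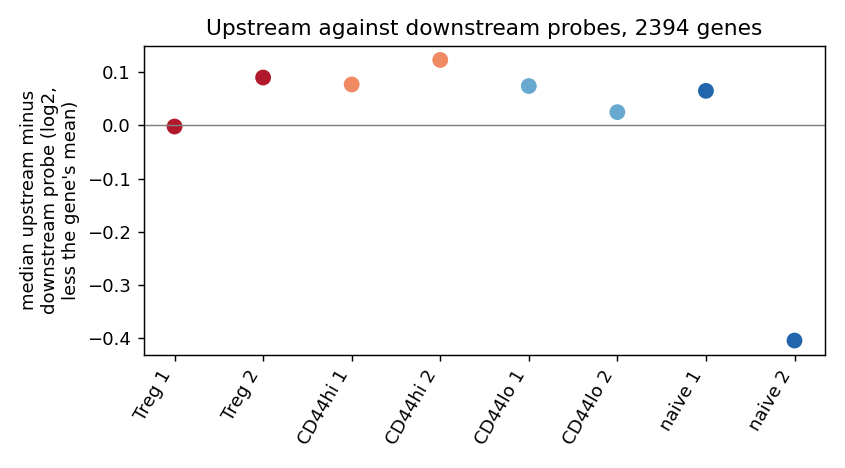
Median log2 difference of upstream from downstream probes of the same gene, less the gene's mean over the 8 arrays, for 2394 genes; 1 point per array, coloured by group. Naive array 2 lies at -0.404, and the other 7 arrays lie between -0.002 and 0.123.

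Dntt, the DNA polymerase of junctional diversity, was at a level of 0.363 and 0.331 on the Treg arrays, 0.19 and 0.18 on the CD44hi arrays, 0.93 and 0.829 on the CD44lo arrays, and 2.99 and 5.22 on the naive arrays. No groups overlapped, and the levels ran CD44hi, Treg, CD44lo, naive from low to high. Against naive, the mean level was 8.78% in Treg, 4.68% in CD44hi and 22.2% in CD44lo (ratios of geometric means). On the log2 scale these differences were -3.51, -4.42 and -2.17. With naive array 1 alone they were -3.11, -4.02 and -1.77, and with naive array 2 alone -3.91, -4.82 and -2.57. In sorted pools such as these, fewer cells that carry a transcript and less of it per cell cannot be told apart.

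Dntt probe 2 gave the same order of groups, again with no overlap. It was at 0.0657 and 0.07 in Treg, 0.018 and 0.0186 in CD44hi, 0.188 and 0.166 in CD44lo, and 0.705 and 1.2 in naive. Probe 3, the junction probe printed above, was well above background on 4 of the 8 arrays, all in CD44lo and naive, where it read 0.0202 and 0.017 in CD44lo and 0.11 and 0.0632 in naive. Its naive level was at least 8.37-fold that in Treg and at least 6.5-fold that in CD44hi. Relative to naive, CD44lo stood at 22.2%, 19.2% and 22.2% by probes 1, 2 and 3, as ratios of means over both arrays. Each of the 2 array slides held 1 array of every group, and within a slide the probes differed more: CD44lo minus naive was -2.66, -2.85 and -1.89 for probes 1, 2 and 3 on slide 1 and -1.69, -1.91 and -2.45 on slide 2.

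Igfbp4 was at 0.467 and 0.759 in Treg, 0.115 and 0.136 in CD44hi, 3.52 and 3.85 in CD44lo, and 5.68 and 6.22 in naive. The order of groups was that of Dntt, with no overlap, but CD44lo stood at 61.9% of naive, closer than for Dntt. The naive level was 9.99-fold that of Treg and 47.5-fold that of CD44hi. The log2 differences from naive were -3.32 in Treg, -5.57 in CD44hi and -0.69 in CD44lo, and were -3.26, -5.51 and -0.63 with naive array 1 alone and -3.39, -5.64 and -0.76 with naive array 2 alone. With the authors' deposited log2 values in place of the scaled signals the CD44hi difference was -4.97. The upstream probe 2 was at 0.226 and 0.387 in Treg, 0.0492 and 0.0726 in CD44hi, 1.74 and 1.87 in CD44lo, and 3.2 and 1.57 in naive. By that probe CD44lo and naive overlapped, because naive array 2 was the lower of the naive arrays.

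Dapl1 was the member with another order. It was at 1.2 and 0.87 in Treg, 4.67 and 3.26 in CD44hi, 13.6 and 11.8 in CD44lo, and 26.8 and 40.8 in naive. Treg, not CD44hi, was lowest, and no groups overlapped. Treg stood at 3.1% of naive, CD44hi at 11.8% and CD44lo at 38.4%, with log2 differences of -5.01, -3.08 and -1.38. With naive array 1 alone these were -4.71, -2.78 and -1.08, and with naive array 2 alone -5.32, -3.39 and -1.69.

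Tspan9 was at 0.399 and 0.435 in Treg, 0.0571 and 0.0495 in CD44hi, 1.66 and 1.95 in CD44lo, and 2.3 and 3.23 in naive. CD44lo was close to naive, at 66.3% of its level, while Treg stood at 15.3% and CD44hi at 1.95%. The log2 differences from naive were -2.71 in Treg, -5.68 in CD44hi and -0.59 in CD44lo. They were -2.46, -5.43 and -0.35 with naive array 1 alone and -2.95, -5.92 and -0.84 with naive array 2 alone. The CD44hi difference was -4.57 with normexp background correction, -4.68 with the authors' values and -4.37 as the mean of both probes. Probe 2 was far dimmer and not well above background on any Treg or CD44hi array. It read 0.0206 and 0.0183 in CD44lo and 0.0212 and 0.0303 in naive, and its naive level was at least 2.54-fold that in Treg and at least 1.97-fold that in CD44hi.

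Ampd1 was at 0.236 and 0.314 in Treg, 0.0523 and 0.0498 in CD44hi, 1.09 and 1 in CD44lo, and 1.85 and 3.34 in naive. No groups overlapped, and CD44hi was again lowest. Treg stood at 10.9% of naive, CD44hi at 2.06% and CD44lo at 42.1%. The log2 differences were -3.19 in Treg, -5.61 in CD44hi and -1.25 in CD44lo. They were -2.76, -5.18 and -0.82 with naive array 1 alone and -3.62, -6.03 and -1.68 with naive array 2 alone. The CD44hi difference was -4.57 with normexp background correction and -4.67 with the authors' values.

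**Figure D2:**
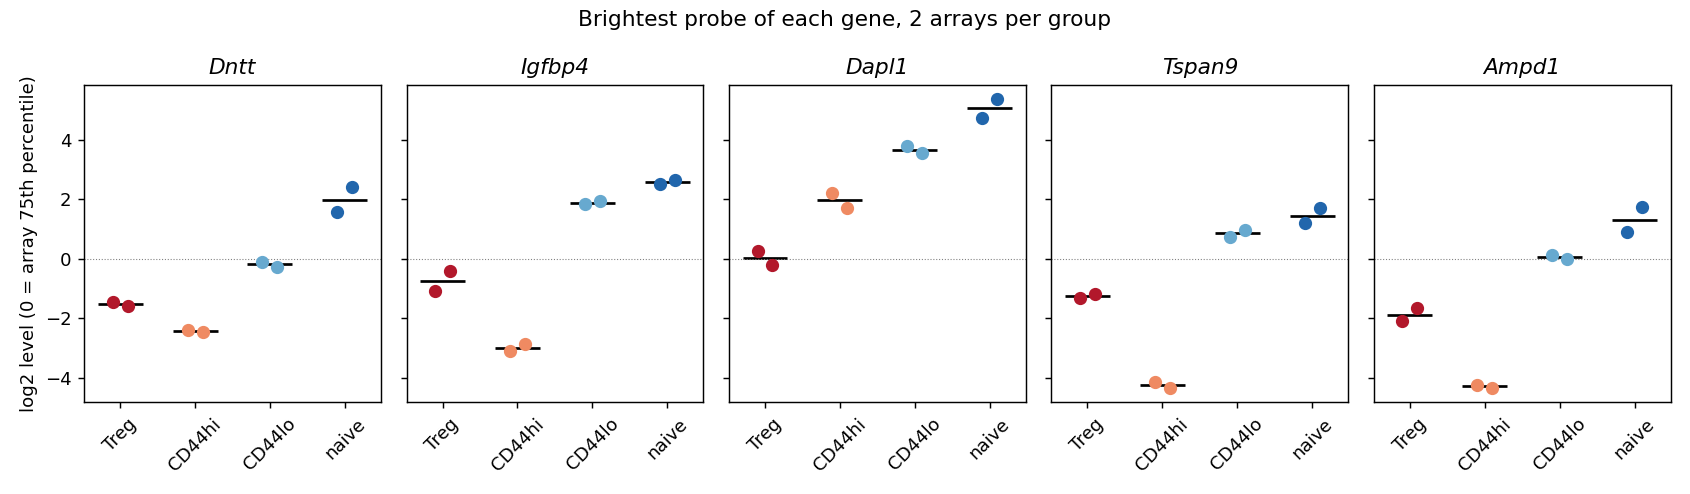
Log2 level of the brightest probe of each of the 5 genes (y axis; 0 is the 75th percentile of the array) in the Treg, CD44hi, CD44lo and naive groups; each point is 1 array and each bar the mean of 2. CD44hi is lowest for Dntt, Igfbp4, Tspan9 and Ampd1, and Treg is lowest for Dapl1, at mean log2 levels of 0.03 in Treg and 1.96 in CD44hi.

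The order CD44hi, Treg, CD44lo, naive from low to high, which Dntt, Igfbp4, Tspan9 and Ampd1 followed, was also the most frequent one among genes highest in naive. Of the 17996 genes tested, 4185 were highest in naive with no overlap with another group. By group means, 1784 of these (42.6%) followed that order, and 1316 (31.4%) followed the order of Dapl1. The remaining orders of the groups below naive held 518, 377, 98 and 92 genes.

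**Figure D3:**
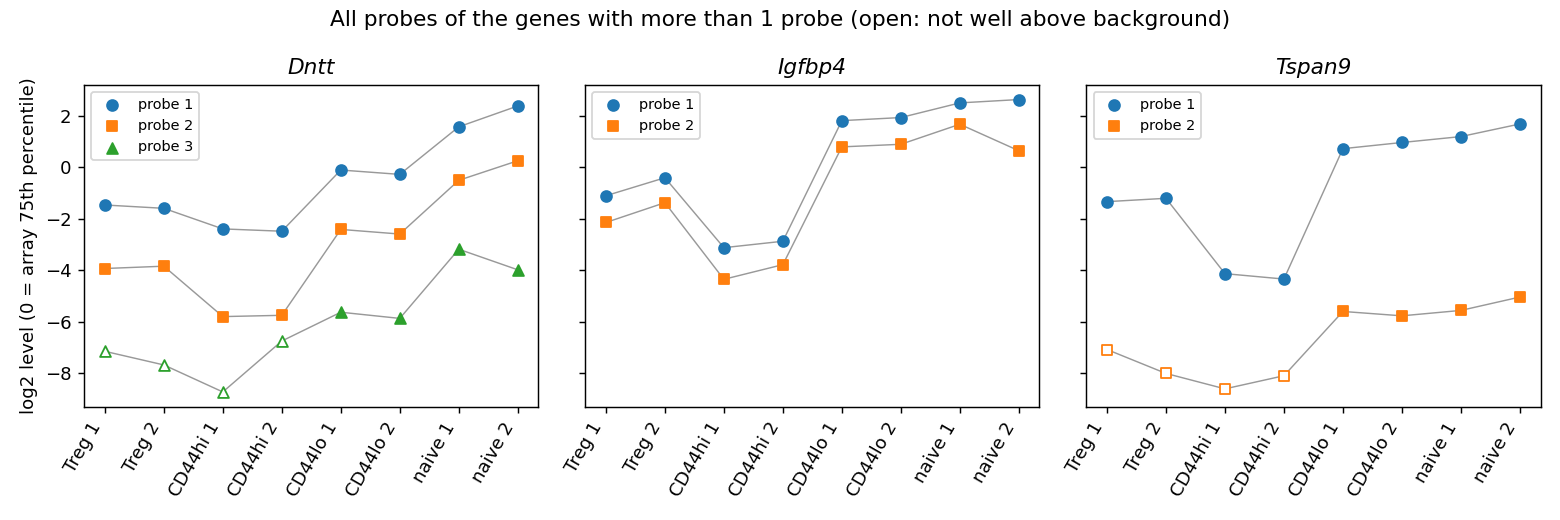
Log2 level of every probe of Dntt, Igfbp4 and Tspan9 (y axis; 0 is the 75th percentile of the array) on each of the 8 arrays, with lines joining the readings of 1 probe; open symbols are readings not well above background. Dntt probe 3 and Igfbp4 probe 2 are lower on naive array 2 than on naive array 1, and the probes 1 of the same genes are higher there.

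The comparison of CD44hi with CD44lo has no naive arrays in its difference, but it is not independent of the choice of genes: Igfbp4, Tspan9 and Ampd1 had been among the largest falls of CD44hi against naive in earlier results, and that contrast shares the CD44hi arrays. Among the 4185 genes highest in naive with no overlap, the orders with CD44hi below CD44lo held 1784, 1316 and 518 genes. The other orders held 377, 98 and 92. All 5 members fell in CD44hi relative to CD44lo, where 9.37% of all tested genes were called in either direction, 6.06% higher and 3.31% lower (limma, Benjamini-Hochberg adjusted p under 0.05 over 17996 genes). The median log2 difference of all tested genes was -0.04. Tspan9 fell most, 33.9-fold (log2 difference -5.08 ± 0.21 SE, adjusted p = 6.68e-04). Igfbp4 fell 29.4-fold (-4.88 ± 0.25, adjusted p = 6.68e-04) and Ampd1 20.5-fold (-4.36 ± 0.30, adjusted p = 0.00113).

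Dntt fell 4.75-fold (-2.25 ± 0.26, adjusted p = 0.00459) and Dapl1 3.25-fold (-1.70 ± 0.29, adjusted p = 0.0167). The Dapl1 call was lost when CD44hi array 2, CD44lo array 1 or CD44lo array 2 was left out (adjusted p = 0.0861, 0.114 and 0.0618). With normexp background correction the sizes of Tspan9 and Ampd1 were smaller, at log2 differences of -4.06 and -3.40, as they were with the authors' values (-4.20 and -3.53), and the mean of both Tspan9 probes gave -3.88. All of these calls held. The second probes gave falls of -3.27 ± 0.26 for Dntt (adjusted p = 0.00187 over 27162 probes) and -4.92 ± 0.41 for Igfbp4 (adjusted p = 0.00221). That of Dntt was near the lowest level well above background in CD44hi. On each slide taken alone, all 5 genes were lower in CD44hi than in CD44lo.

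The comparison of Treg with CD44lo uses neither the naive nor the CD44hi arrays for its difference, but it too is not independent of the choice of genes. Among the 4185 genes highest in naive with no overlap, the orders with Treg below CD44lo held 1784, 1316 and 377 genes. The other orders held 518, 98 and 92, so a lower level in Treg was the usual case for genes so chosen. All 5 members fell in Treg, where 5.56% of all tested genes were called, 3.70% higher and 1.87% lower, and the median log2 difference of all tested genes was -0.07. Dapl1 fell most, 12.4-fold (-3.63 ± 0.29, adjusted p = 0.00211). Igfbp4 fell 6.18-fold (-2.63 ± 0.25, adjusted p = 0.00353) and Tspan9 4.33-fold (-2.12 ± 0.21, adjusted p = 0.0043). Ampd1 fell 3.85-fold (-1.95 ± 0.30, adjusted p = 0.0154) and Dntt 2.53-fold (-1.34 ± 0.26, adjusted p = 0.0366).

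The Dntt and Ampd1 calls in Treg were near the threshold. Leaving out any 1 of the Treg or CD44lo arrays ended both, with adjusted p between 0.126 and 0.226 for Dntt and between 0.0654 and 0.111 for Ampd1. Only 3 of the 5 members were then called. Leaving out either CD44hi array, or adding the slide as a term, also ended the Dntt call (adjusted p = 0.0568 and 0.0523). Dntt probe 2 gave a difference of -1.38 ± 0.26 (adjusted p = 0.0335), close to that of probe 1. All 5 genes were lower in Treg than in CD44lo on each slide.

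The comparison of Treg with CD44hi separated the members. It shares the CD44hi arrays by which Igfbp4, Tspan9 and Ampd1 had stood out in earlier results. In Treg, 3 of the 5 rose and 1 fell, where 8.19% of all tested genes were called, 4.15% higher and 4.04% lower. The median log2 difference of all tested genes was -0.04. Tspan9 rose 7.83-fold (2.97 ± 0.21, adjusted p = 7.92e-04), Ampd1 5.33-fold (2.41 ± 0.30, adjusted p = 0.0047) and Igfbp4 4.76-fold (2.25 ± 0.25, adjusted p = 0.00326). Dapl1 fell 3.81-fold (-1.93 ± 0.29, adjusted p = 0.0107), and this call was lost without Treg array 2 (adjusted p = 0.0791). The rises of Tspan9 and Ampd1 were smaller with normexp (2.06 and 1.62) and with the authors' values (2.17 and 1.75), and the mean of both Tspan9 probes gave 1.89, with each call kept. All 4 called genes had the same sign on each slide.

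Dntt was 1.88-fold higher in Treg than in CD44hi by its brightest probe and was not called (0.91 ± 0.26, adjusted p = 0.0994). Its adjusted p ranged from 0.0106 to 0.36 over the alternatives and passed the threshold when either naive array was left out of the fit (0.0106). Dntt probe 2 gave a larger difference, 1.89 ± 0.26, which was called (adjusted p = 0.00788 over 27162 probes), and probe 3 was not well above background in either group. In CD44hi, probe 2 was at log2 levels of -5.80 and -5.75, near the lowest levels well above background on those arrays (-6.47 and -6.10). Probes 1 and 2 of Dntt thus gave different sizes for this contrast.

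**Figure D4:**
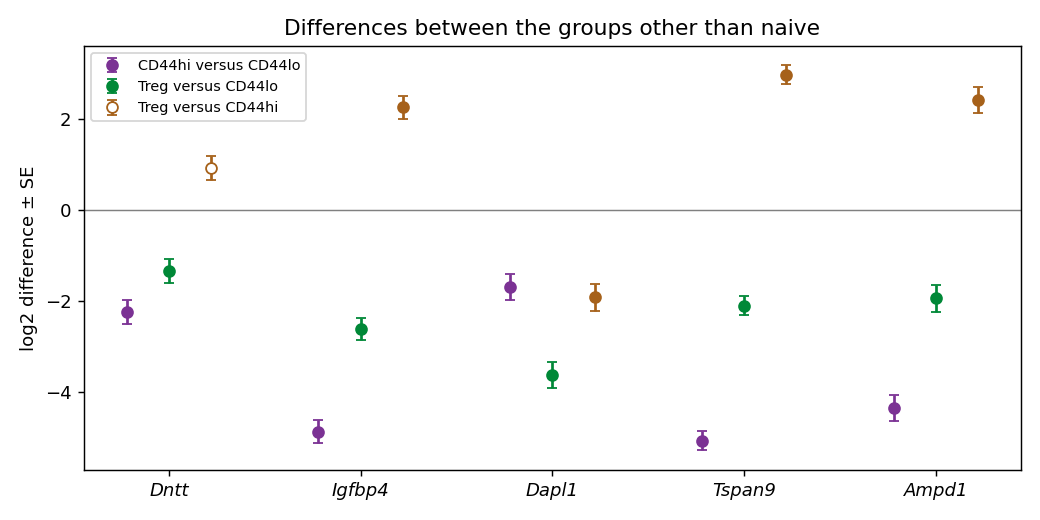
Log2 difference ± SE of each of the 5 genes for CD44hi versus CD44lo, Treg versus CD44lo and Treg versus CD44hi (limma, 2 arrays per group); filled points have an adjusted p under 0.05. The points lie below 0 for both comparisons with CD44lo, and for Treg versus CD44hi only Dapl1 lies below 0 (-1.93), with Dntt (0.91) open.

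Among themselves, Igfbp4, Tspan9 and Ampd1 followed each other most closely over the 8 arrays, with Pearson r of 0.988 for each pair. Dntt had r of 0.911 with Igfbp4, 0.891 with Tspan9 and 0.944 with Ampd1. Over the 6 arrays without naive these were 0.983, 0.973 and 0.979. Dapl1 had r between 0.635 and 0.824 with the others over 8 arrays and between 0.377 and 0.564 over 6. These correlations describe 2 arrays in each of a few groups, whose arrays may share a source that the labels do not give, and have no p.

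The genes most alike each member were taken by Pearson r of log2 levels over the 8 arrays, among tested genes with a current symbol. For Dntt they were Fntb and Slc30a9 (0.997), Dgkd and Acss1 (0.996), and Usp28, Polr1a, Mcoln1 and Npc2 (0.994). Their range was narrower than that of Dntt: Fntb was at 0.318 and 0.318 in Treg, 0.239 and 0.231 in CD44hi, 0.471 and 0.42 in CD44lo, and 0.677 and 0.865 in naive. For Ampd1 they were Atp1b1 (0.995), Auts2 (0.994) and Usp2 (0.993), and for Igfbp4 Usp2 (0.986), Plaur (0.983) and Atp1b1 (0.98). Atp1b1, a subunit of the sodium pump, was at 2 and 1.75 in Treg, 0.619 and 0.632 in CD44hi, 5.38 and 5.18 in CD44lo, and 9.11 and 14.1 in naive. For Tspan9 they were Pyroxd2 (0.989), Cyp2d22 and Ddx51 (both 0.988), and for Dapl1 Xylt2 (0.998), Gucd1 (0.997) and Fam78a (0.996).

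The promoters of 4 of the 5 members were in the RefSeq table used (GRCm38.p6), in windows of 250 bases before to 50 after the start. Those of Dntt, Igfbp4 and Dapl1 are shown up to the base before the start, because these genes have 1 window each and moved together between CD44hi and CD44lo. They lie at chr19:41029025-41029274, chr11:99040994-99041243 and chr2:59484403-59484652 on the plus strand. The Igfbp4 window lies inside the gene interval given above, which begins at chr11:99040005, so it belongs to a start further downstream. The windows of Dntt and Dapl1 end just before their gene intervals. Capitals mark matches on either strand to 9 motifs: CANNTG (E box), CTTTGAT and CTTTGTT (TCF/LEF), GTAAACA (forkhead), TGTGGT (Runx), TGGGAA (Ikaros), AGGAAG (Ets), TATAAA (bound by the TBP protein) and TCATTCT (the initiator first described in Dntt).
Dntt promoter: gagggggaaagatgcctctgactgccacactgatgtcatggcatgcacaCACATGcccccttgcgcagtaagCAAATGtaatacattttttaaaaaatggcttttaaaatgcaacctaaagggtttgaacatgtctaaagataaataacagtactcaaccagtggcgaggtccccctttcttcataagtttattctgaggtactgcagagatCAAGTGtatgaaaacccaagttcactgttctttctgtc
Igfbp4 promoter: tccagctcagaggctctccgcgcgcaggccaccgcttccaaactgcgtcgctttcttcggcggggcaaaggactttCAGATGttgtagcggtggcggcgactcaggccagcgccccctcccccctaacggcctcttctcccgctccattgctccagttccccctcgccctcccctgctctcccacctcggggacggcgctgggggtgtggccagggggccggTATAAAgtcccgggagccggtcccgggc
Dapl1 promoter: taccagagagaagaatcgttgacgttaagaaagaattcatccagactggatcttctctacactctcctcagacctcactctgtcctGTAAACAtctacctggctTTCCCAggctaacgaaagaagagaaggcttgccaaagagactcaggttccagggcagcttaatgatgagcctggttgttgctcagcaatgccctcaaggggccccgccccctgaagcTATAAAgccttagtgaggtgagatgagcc

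In the Dntt window the 3 matches were all E boxes, at -201, -178 and -38 from the start. Igfbp4 had an E box at -174 and TATAAA at -28. Dapl1 had GTAAACA at -164, TGGGAA on the minus strand at -146 and TATAAA at -29, and an E box after the start. Of 32851 mouse promoter windows of this length, 72.3% held CANNTG, 25.6% TGGGAA, 13.6% TATAAA and 3.65% GTAAACA. No match to TGTGGT (16.8% of windows), AGGAAG (35.4%), CTTTGTT (5.85%), TCATTCT (4.86%) and CTTTGAT (3.73%) lay in the windows of Dntt, Igfbp4 and Dapl1. The initiator first described in Dntt was thus absent from its own window, so the RefSeq start used may not be the start of that initiator. Which start these cells use was not tested. Tspan9 had 4 windows, of which 3 held TGGGAA and 3 held an E box. The GC content was 42.3% for Dntt, 71.3% for Igfbp4, 51% for Dapl1 and 52.7 to 73.3% for Tspan9, against a median of 52.7% over all windows.

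Dntt works with other genes in V(D)J recombination and end joining. Of 15 tested members of that list other than Dntt, 1 rose and 0 fell in CD44hi against CD44lo, where 9.37% of all tested genes were called. In Treg 0 were called against CD44lo or against CD44hi, where 5.56% and 8.19% of all tested genes were called, so with 15 genes the counts lie near the shares over all genes. Hmgb2, a DNA-bending protein that aids the recombinase and is high in dividing cells, was the one that rose, at a log2 difference of 1.44 ± 0.20 (adjusted p = 0.00788). Against naive, 0 were called in CD44lo, and in CD44hi and in Treg 1 rose and 1 fell. Over all tested genes 5.29%, 27.8% and 21.9% were called in CD44lo, CD44hi and Treg against naive. Rag1 and Rag2, which encode the recombinase, were not tested. Rag2 was well above background on 0 arrays and Rag1 on 2 of the 8. Polm, the polymerase most like Dntt, was at 14.9 and 15.3 in Treg, 13.7 and 13.3 in CD44hi, 11.5 and 12 in CD44lo, and 10.6 and 11.6 in naive, and was not called in these comparisons.

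Thymocyte and recent thymic emigrant genes moved in both directions. Of 15 tested, 2 rose and 3 fell in CD44hi against CD44lo, 1 rose and 2 fell in Treg against CD44lo, and 2 rose and 1 fell in Treg against CD44hi. Over all tested genes 9.37%, 5.56% and 8.19% were called in these comparisons. Satb1, a chromatin organiser of thymocytes, fell in CD44hi against CD44lo (-2.38 ± 0.19, adjusted p = 0.00172) and in Treg against CD44lo (-1.20 ± 0.19, adjusted p = 0.0162), and rose in Treg against CD44hi (1.17 ± 0.19, adjusted p = 0.0128). Sox4 fell in CD44hi against CD44lo (-1.71 ± 0.23, adjusted p = 0.00671). Themis, which tunes T cell receptor signals in thymocytes, fell in Treg against CD44lo (-1.34 ± 0.14) and against CD44hi (-2.23 ± 0.14), while Ccr9, a chemokine receptor of thymocytes and gut-homing cells, rose in both (1.43 ± 0.21 and 1.32 ± 0.21). Against naive, 1 rose and 1 fell in CD44lo, and 2 rose and 5 fell both in CD44hi and in Treg. Of all tested genes, 5.29%, 27.8% and 21.9% were called in CD44lo, CD44hi and Treg against naive.

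Igfbp4 belongs to the insulin-like growth factor axis of ligands, receptors and binding proteins. Of 9 tested genes of this axis other than Igfbp4, 3 rose and 2 fell in CD44hi against CD44lo, 2 rose and 0 fell in Treg against CD44lo, and 3 rose and 1 fell in Treg against CD44hi. The shares called over all tested genes were 9.37%, 5.56% and 8.19%. Igfbp7, a secreted protein related to Igfbp4, was at 0.502 and 0.702 in Treg, 0.615 and 0.959 in CD44hi, 0.0392 and 0.0721 in CD44lo, and 0.00512 and 0.00465 in naive, where it was not well above background. It rose in CD44hi (3.85 ± 0.35, adjusted p = 0.00262) and in Treg (3.48 ± 0.35, adjusted p = 0.00477) against CD44lo. Relative to naive it was at least 38.8-fold higher in Treg, 50.2-fold in CD44hi and 3.48-fold in CD44lo. Treg and CD44hi overlapped and their difference was not called (-0.37 ± 0.35, adjusted p = 0.64).

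Igf2, a ligand of this axis, rose in Treg, at 0.105 and 0.113, against 0.0211 and 0.0232 in CD44lo (2.30 ± 0.27, adjusted p = 0.00733), and was at least 8.48-fold higher in Treg than in CD44hi, where it was not well above background. Igf2r, which carries Igf2 to lysosomes, fell in CD44hi against CD44lo (-1.01 ± 0.22, adjusted p = 0.0383) and rose in Treg against CD44hi (1.95 ± 0.22, adjusted p = 0.00374). Igf1r, the signalling receptor, rose in Treg against CD44hi (1.01 ± 0.21, adjusted p = 0.0359). Stc2, an inhibitor of the protease that cleaves Igfbp4, rose in CD44hi against CD44lo (1.89 ± 0.38, adjusted p = 0.0276) and fell in Treg against CD44hi (-2.06 ± 0.38, adjusted p = 0.0213). Against naive, 3 rose and 0 fell in CD44lo, 5 rose and 1 fell in CD44hi, and 4 rose and 0 fell in Treg. Here 5.29%, 27.8% and 21.9% of all tested genes were called. Igfbp5 was well above background on 0 arrays.

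Of 22 tested genes of the purine nucleotide cycle and AMP metabolism other than Ampd1, 0 rose and 1 fell in CD44hi against CD44lo (9.37% of all tested genes called). In Treg 1 rose and 0 fell both against CD44lo and against CD44hi (5.56% and 8.19% of all tested genes called), so these counts too lie near the shares over all genes. Impdh1, the inosine monophosphate dehydrogenase that leads to guanine nucleotides, fell in CD44hi (-0.72 ± 0.14, adjusted p = 0.0278). Entpd1 (CD39), which degrades extracellular ATP, rose in Treg against CD44lo (1.81 ± 0.24, adjusted p = 0.0102), and Ada, adenosine deaminase, rose in Treg against CD44hi (1.23 ± 0.25, adjusted p = 0.03). The related deaminase Ampd2 was at 8.04 and 8.23 in Treg, 7.35 and 7.3 in CD44hi, 7.05 and 6.98 in CD44lo, and 6.87 and 6.41 in naive, and Ampd3 lay between 0.161 and 0.415 over all arrays. Neither was called between these groups. Against naive, 2 rose and 0 fell in CD44lo, 5 rose and 2 fell in CD44hi, and 3 rose and 1 fell in Treg. All tested genes were called at 5.29%, 27.8% and 21.9% in these comparisons.

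Of 20 tested tetraspanins other than Tspan9, 4 rose and 0 fell in CD44hi against CD44lo, 0 were called in Treg against CD44lo, and 2 rose and 3 fell in Treg against CD44hi. The called shares over all tested genes were 9.37%, 5.56% and 8.19%. Tspan2 rose in CD44hi (1.72 ± 0.19, adjusted p = 0.00393) and Tspan31 likewise (1.23 ± 0.22, adjusted p = 0.0195), so both went against the direction of Tspan9. Tspan33 was at least 3.03-fold higher in CD44hi than in CD44lo, where it was not well above background. Cd81, a tetraspanin of lymphocytes, was at 18.2 and 20.8 in Treg and 3.31 and 4.95 in CD44hi and rose in Treg (2.26 ± 0.34, adjusted p = 0.00979), as did Tspan6 (1.42 ± 0.29, adjusted p = 0.0336). Tspan2 fell in Treg against CD44hi (-1.06 ± 0.19, adjusted p = 0.0203). Against naive, 1 rose and 1 fell in CD44lo, 7 rose and 1 fell in CD44hi, and 6 rose and 2 fell in Treg. There the called shares over all tested genes were 5.29%, 27.8% and 21.9%.

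Of 24 tested genes of naive T cells and quiescence other than Dapl1 and Igfbp4, 0 rose and 10 fell in CD44hi against CD44lo, and 0 rose and 5 fell in Treg against CD44lo, with median log2 differences of -0.59 and -0.54. In Treg against CD44hi 3 rose and 1 fell, with a median of 0.03. The shares of all tested genes called lower were 3.31%, 1.87% and 4.04%, and those called higher 6.06%, 3.70% and 4.15%. Bach2, a repressor that restrains effector differentiation, fell in CD44hi against CD44lo (-2.21 ± 0.19, adjusted p = 0.00239). It rose in Treg against CD44hi (1.62 ± 0.19, adjusted p = 0.00445), as Igfbp4, Tspan9 and Ampd1 did.

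Tcf7, which encodes the T cell factor TCF1, was at 21.7 and 19.1 in Treg, 41.8 and 42 in CD44hi, 48.9 and 50.1 in CD44lo, and 59.5 and 68 in naive. It was the gene of this list that fell in Treg against CD44hi (-1.04 ± 0.15, adjusted p = 0.00867), the direction of Dapl1, and it fell in Treg against CD44lo as well (-1.28 ± 0.15, adjusted p = 0.00733). Lef1, the related factor, fell in CD44hi (-1.70 ± 0.26, adjusted p = 0.0102) and in Treg (-1.30 ± 0.26, adjusted p = 0.0358) against CD44lo. Against naive, 2 of the 24 fell in CD44lo, 15 in CD44hi and 16 in Treg, and 0 rose in each. Over all tested genes the called share against naive was 5.29% in CD44lo (4.53% higher and 0.761% lower), 27.8% in CD44hi (13.2% higher and 14.5% lower) and 21.9% in Treg (11.6% higher and 10.3% lower). The lists were drawn up with earlier results of these arrays known, so their counts are a description.

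**Figure D5:**
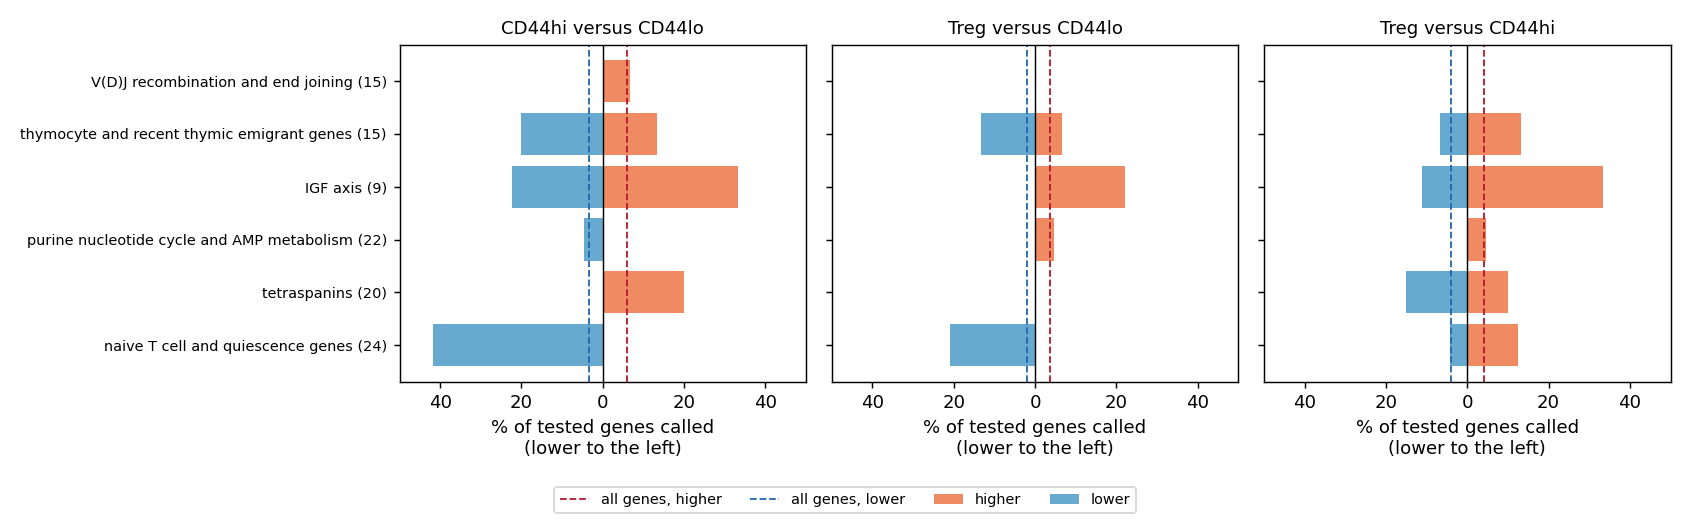
Share of the tested genes of each of 6 lists (number of genes in brackets, the 5 members left out) called higher (right) or lower (left) at an adjusted p under 0.05, in 3 comparisons; dashed lines are the shares over all 17996 tested genes. In CD44hi versus CD44lo the naive and quiescence list lies at the left, with 10 of 24 genes lower and 0 higher, and in the purine and V(D)J lists 1 gene each was called.

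Markers of other cells that a sort could hold moved with some of these groups. The 11 CD8 T and NK cell markers summed to 8.15 to 8.46 in Treg, 7.15 to 7.77 in CD44hi, 9.59 to 11 in CD44lo and 18 to 22.9 in naive, mostly through Cd8b1 and Klrd1. Their median level was instead lowest in naive, at 0.024 to 0.0435. It was 0.119 to 0.166 in Treg, 0.212 to 0.283 in CD44hi and 0.263 to 0.304 in CD44lo. Gzma, Gzmb and Klrb1c were lowest in naive, with Gzmb at 1.32 and 2.1 in Treg and 0.00977 and 0.00793 in naive. Cd8b1 was at 5.6 and 5.28 in Treg, 3.42 and 3.36 in CD44hi, 5.14 and 4.93 in CD44lo, and 8.69 and 13.4 in naive. By this probe Treg lay above CD44lo, unlike in any of the 5 members, though the difference was not called (limma, adjusted p = 0.841). The other measured probe of Cd8b1 had the opposite sign for Treg against CD44lo and for Treg against CD44hi. Klrd1 was at 0.166 and 0.119 in Treg, 1.42 and 1.03 in CD44hi, 2.84 and 1.86 in CD44lo, and 6.07 and 7.61 in naive. Cd8a was between 0.0039 and 0.0485 on all arrays and well above background on 4 of 8, and Klra1 was not well above background on either array of any group.

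The 8 thymocyte markers, which include Cd8a and Cd8b1, summed to 6.39 to 6.97 in Treg, 3.91 to 3.96 in CD44hi, 5.38 to 5.67 in CD44lo and 9.1 to 14 in naive. Most of this sum was Cd8b1 in every group. Rag1, Rag2 and Ptcra were not well above background on either naive array. Ccr9 was lowest in naive, at 0.243 and 0.34, and highest in Treg, at 1.16 and 0.945. Arpp21 was highest in naive, at 0.0311 and 0.0525. The 13 B cell markers summed to 6.86 to 11.2 in Treg, 7.45 to 12.4 in CD44hi, 1.86 to 2.58 in CD44lo and 0.436 to 0.726 in naive, with Jchain, Cd79b and Cd22 among the larger parts, and with Ebf1 and Fcer2a not well above background on either array of any group. The 16 myeloid and dendritic cell markers summed to 1.57 to 1.91 in Treg, 2.1 to 2.32 in CD44hi, 0.941 to 1.14 in CD44lo and 0.76 to 1.15 in naive. The class II genes and Cd74 summed to 2.97 to 3.2 in Treg, 1.66 to 1.74 in CD44hi, 0.79 to 1.17 in CD44lo and 2.42 to 4.99 in naive. The 5 erythroid and platelet markers measured lay between 0.116 and 0.487 in sum on all arrays. The part of these markers in the members' levels was not tested.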

How the data were processed

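RNA of 8 sorted samples went through a low-input linear amplification, was labelled with Cy3 and was hybridised to Agilent mouse arrays, per the labels' protocols. Per the file headers, the scanner images were quantified by Agilent Feature Extraction 9.5.1.1, and the deposited files give an intensity for every spot. The processed signal is background-subtracted by the authors' image software and not normalized between arrays, and the other columns used hold raw signals, background and spot flags (unit other, per the file headers). The authors' deposited value table is on a log2 scale with shared quantiles (column medians 6.86 to 6.88) and followed the raw signal, so it was taken as quantile-normalized without background subtraction and used only as an alternative. The submitters' processing notes name limma.

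Control spots (1639 of 45018) were left out, and spots of a probe were averaged, giving 41174 probes. Spots flagged as outliers were left out of the average unless every spot of the probe was flagged, which removed 64 to 113 spots per array. Names were updated by RefSeq accession for 22951 probes, by symbol for 6659 and by older symbol for 3109, and 8455 kept the file's name. The log2 processed signal less the array's 75th percentile was used, with the brightest probe per gene. A gene was tested where its probe passed the well-above-background flag on each array of 1 or more groups, and the 17996 genes that did were tested across all genes with limma 3.58.1 in R 4.3.3 (lmFit, eBayes), in 1 model of 8 arrays without a block, leaving 4 residual and 2.62 prior degrees of freedom. Tests were 2-sided. Standard errors are those of the model. Where a probe was not well above background in a group, the fold is a lower bound, set against the lowest signal among probes well above background on each array. The number of arrays limits the precision: with 2 arrays in each group, the smallest p of an exact permutation test is 0.333. The script was tested on simulated data. The members and the lists were chosen with earlier results of these data known. Genes named are the members, the most alike genes by correlation, preset genes of each list and up to 3 called genes per list and comparison with the largest difference, and a few of these are not reported here. Probe coordinates are those of the array design (mm7, per the file headers). Alternatives covered scaling, background, filter, probe choice, slide, replicate number, trend, samples in the model and each array left out.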

Additional observations from a re-analysis of the deposited data

How the results depend on the processing

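Each of 15 member differences between groups other than naive was refitted under 19 alternatives. Of the 285 values, 0 were reversed: 262 kept their side of the threshold, 18 lost the call and 5, all Dntt in Treg against CD44hi, gained it. Most alternatives change the spread or the adjustment but cannot change a difference or reverse it. These are the filters, the slide and replicate terms, the trend, fewer groups in the model and leaving out an array of another group. The 19 are not all distinct. Leaving out either array of a group not compared gives the same fit, and for naive it is also that of the 6 arrays without naive. Some gains and losses are therefore counted more than once. Lost calls beyond those given above came without a filter on dim probes, where adjusted p was 0.0536 for Dapl1 in CD44hi against CD44lo, 0.113 for Dntt and 0.0566 for Ampd1 in Treg against CD44lo, and 3 members were called in the last comparison. The cause was not tested. Of 270 values for the differences from naive, under 18 alternatives each, 32 moved by more than the spread between arrays and 0 reversed. Genes called in CD44hi against CD44lo, Treg against CD44lo, Treg against CD44hi, CD44lo against naive, CD44hi against naive and Treg against naive numbered 842, 382, 776, 606, 3129 and 2301 without the filter on dim probes. The first 3 comparisons gave 2765, 1641 and 2635 calls with only the 6 arrays without naive. With only the 4 arrays compared, 2610 genes were called in CD44hi against naive and 2522 in Treg against naive, and with genes well above background on all 8 arrays 621 in CD44lo against naive. Leaving out 1 array in turn gave 513 to 2765, 188 to 1641, 535 to 2635, 506 to 7191, 2594 to 9231 and 1789 to 9200 calls in the 6 comparisons, the highest counts against naive being those without naive array 1. Members called then ranged from 4 to 5, 3 to 5 and 3 to 5. The share of called genes that were higher moved under another scaling or background correction by over 10 percentage points only against naive: in CD44lo it was 73.7% with normexp and 70.3% with the authors' values, where 85.6% is reported, and with normexp it was 34.1% in CD44hi and 32.3% in Treg, where 47.7% and 52.8% are reported. Same-numbered arrays share a title prefix across groups (m1 or m2), but what it stands for is not stated. Their deviations from the group means correlated at 0.056 to 0.332 over 6 pairs of groups, all positive. Arrays of the same slide gave -0.259 to 0.332. Whether the number marks a pairing was not tested, and the main model has no term for it. The replicate block left the members called at 5, 5 and 4 and changed no member's call, with 2263, 1382 and 1899 genes called in the 3 comparisons without naive. The main model called 1686, 1001 and 1474. Signal over background limits Dntt probe 3 and Tspan9 probe 2 to lower bounds in Treg and CD44hi.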
